A study of Caenorhabditis elegans with 2 samples.

Results

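Of 10 Caenorhabditis elegans genes for cytochrome c oxidase, 7 had a reproducible peak of the tagged RCAT-1 protein at their promoter, beside 7.71% of all protein-coding genes. For 3 of the 10 that peak was among the 100 strongest, beside 0.751% of all genes. The 10 genes were the assembly factors sco-1, cox-10, cox-11, cox-15 and cox-17 and the nuclear-encoded subunits cox-4, cox-5A, cox-5B, cox-6A and cox-6B, out of 19973 protein-coding genes of the nuclear genome. They were taken by name, and the names were chosen by a rule that used the measured peak signals of these same libraries, so their counts and signals below are a description and were not tested.

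Cytochrome c oxidase, or complex IV, is the last enzyme of the mitochondrial respiratory chain, where it passes electrons from cytochrome c to oxygen and pumps protons across the inner membrane. Its catalytic core is encoded by mitochondrial DNA, while the surrounding subunits and all assembly factors are encoded in the nucleus. Assembly factors are not part of the finished enzyme: they make its heme A and bring copper to its metal centres.

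The data were chromatin immunoprecipitation sequencing (ChIP-seq) of whole Caenorhabditis elegans animals of mixed sex at the L3 larval stage, with age not known per the labels. There was 1 group, strain OP218, with 2 biological replicates. All animals were unc-119(ed3) mutants and carried the transgene wgIs218, which supplies the eGFP-tagged product of R02D3.7 (rcat-1 in the annotation). All tissues were mixed, so cells that bind strongly and a larger number of cells that bind weakly cannot be told apart. No control sample was analysed here, so a "bound" promoter below means that a peak was listed there, and no comparison between conditions was made.

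A gene was called bound when the summit of a peak lay from 1000 bp upstream to 200 bp downstream of one of its transcript starts. The peaks were those that the authors kept by the irreproducible discovery rate (IDR), which asks whether a region holds its rank from one replicate to the other. That list held 1584 peaks with signals from 50.7 to 4055, and they were the 1584 highest of the 30000 regions called on the pooled replicates. Lists of 30000 regions for replicate 1 and 29367 for replicate 2 gave the spread. The signal is the authors' own value of unknown scale, and it is compared only within a list. The peak at rcat-1 itself had the highest signal (4055, rank 1). The transgene carries this gene too, and with no control sample analysed, reads from its copies and binding cannot be told apart there. No other check of the label was possible.

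The following windows show the DNA under 5 of the 7 peaks, each 60 bp to both sides of the summit. They are given because the presence or absence of one 8-base element, CGTAAATC, separates them. Each line is the + strand of ce11 (WBcel235), 5′ to 3′, taken from the RefSeq copy of that build, and capitals mark the element or its reverse complement. The windows are chrII:4299380-4299500 for sco-1, chrII:12679787-12679907 for cox-10, chrIII:12905147-12905267 for cox-5A, chrIII:2785991-2786111 for cox-6B and chrIII:5080864-5080984 for cox-6A.
sco-1: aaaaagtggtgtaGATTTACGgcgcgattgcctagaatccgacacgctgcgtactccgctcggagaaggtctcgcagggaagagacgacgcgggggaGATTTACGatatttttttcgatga
cox-10: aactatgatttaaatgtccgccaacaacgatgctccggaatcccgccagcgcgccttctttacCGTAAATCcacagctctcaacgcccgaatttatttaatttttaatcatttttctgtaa
cox-5A: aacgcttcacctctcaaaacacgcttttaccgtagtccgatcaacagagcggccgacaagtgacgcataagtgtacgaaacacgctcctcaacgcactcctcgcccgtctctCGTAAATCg
cox-6B: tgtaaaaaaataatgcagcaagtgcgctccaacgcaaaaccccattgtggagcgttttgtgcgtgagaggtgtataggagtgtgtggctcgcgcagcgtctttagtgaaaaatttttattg
cox-6A: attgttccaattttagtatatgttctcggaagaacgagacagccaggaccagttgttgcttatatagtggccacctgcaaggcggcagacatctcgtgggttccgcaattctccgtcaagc
The element stands in 2 copies at sco-1 and in 1 copy each at cox-10 and cox-5A, and in none at cox-6B and cox-6A. None of the 5 windows touches a coding exon, though that of cox-10 overlaps a short non-coding RNA gene and that of cox-6A an snRNA gene, both described with their peaks.

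The assembly factors split into a strongly bound pair and 3 genes with no IDR peak. The strongest was sco-1 (WBGene00015297, II, 4299653 to 4300845, + strand), a copper chaperone known from yeast and mammals to deliver copper to the CuA centre. Its peak, chrII:4299123-4299770, had a pooled signal of 2905, with 1881 in the list of replicate 1 and 1030 in that of replicate 2. It ranked 4 in the pooled list and 4 in each replicate. The summit lay 213 bp upstream of the start, and the summits of the replicates were 6 bp apart.

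The heme enzyme gene cox-10 (WBGene00012895, II, 12679954 to 12686765, + strand) encodes the farnesyltransferase that turns heme B into heme O. Its peak, chrII:12679612-12680028, had a pooled signal of 830, with 561 in replicate 1 and 268 in replicate 2. It ranked 35 in the pooled list, 30 in replicate 1 and 42 in replicate 2. The summit lay 107 bp upstream of the start, with 3 bp between the replicates. The same summit was 201 bp upstream of the divergent gene Y38E10A.33, which RefSeq describes as a nodule cysteine-rich secreted peptide, and it lay inside the 58-bp non-coding RNA gene Y38E10A.30. Which of these genes the peak belongs to cannot be read from a peak list.

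The other 3 assembly factors had only weak regions. They were cox-11 (WBGene00010437), which brings copper to the CuB centre, cox-15 (WBGene00011526), the heme A synthase, and cox-17 (WBGene00018240), a copper carrier that hands copper on to the proteins of the SCO1 and COX11 families in yeast and mammals. The highest pooled signal in the cox-11 window was 26.7 at rank 4354, with 13.3 in replicate 1 (rank 4626) and 12.6 in replicate 2 (rank 8684). For cox-15 the pooled signal was 17.6 at rank 10435, with 10.04 in replicate 1 (rank 8309) and 10.8 in replicate 2 (rank 12717). For cox-17 it was 16.1 at rank 12870, with 5.21 in replicate 1 (rank 26851) and 13.5 in replicate 2 (rank 7387). The highest region of each of these genes lay in a different place in each replicate, with summits 859 to 1070 bp apart, although at each gene a weaker region of one replicate overlapped the highest region of the other. A region of any strength was listed in the pooled window of all 10 genes, and in that of 41.7% of all protein-coding genes.

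All 5 subunit genes were bound, at signals between those of cox-10 and cox-11. The highest was cox-5A (WBGene00012553, III, 12905491 to 12906619, + strand), a subunit on the matrix side of the enzyme in mammals. Its peak, chrIII:12905061-12905344, had a pooled signal of 437, with 270 in replicate 1 and 162 in replicate 2. It ranked 92 in the pooled list, 88 in replicate 1 and 97 in replicate 2, with the summit 284 bp upstream of the start.

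Next came cox-5B and cox-4, both on chromosome I. The gene cox-5B (WBGene00000371, 9788725 to 9790050, + strand) encodes the subunit that binds zinc in mammals, and cox-4 (WBGene00012354, 13658171 to 13659128, − strand) encodes a subunit with a single membrane span. The cox-5B peak (9788559 to 9788865) had a pooled signal of 295, with 170 in replicate 1 and 127 in replicate 2, and ranked 154, 163 and 144 in those lists. The cox-4 peak (13659442 to 13659687) had a pooled signal of 203, with 129 in replicate 1 and 75.9 in replicate 2, and ranked 236, 223 and 293. Their positions differed: the cox-5B summit was 26 bp upstream of the nearer of its 2 starts, while that of cox-4 was 442 bp upstream and inside an annotated pseudogene, 139 bp from its start.

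The cox-6B and cox-6A calls were the only ones among the 7 to be lost under another window, another use of protein-coding transcript starts or a single replicate. The gene cox-6B (WBGene00022170, III, + strand) encodes a subunit on the intermembrane-space side. It has a transcript of 553 bp that starts at 2786202 and another that spans 87197 bp, from 2699663, with 13 other coding genes inside it. The peak, chrIII:2785948-2786151, lay 151 bp upstream of the shorter transcript, with a pooled signal of 184, 82.4 in replicate 1 and 104 in replicate 2. It ranked 267, 355 and 178 in those lists. The far start had no IDR peak: its highest pooled region had a signal of 32.0 at rank 3139. The IDR summit also lay 103 bp upstream of Y71H2AM.20, on the opposite strand, which RefSeq describes as a serine/threonine-protein phosphatase 2A activator, and 801 bp upstream of nduc-2, a gene of respiratory complex I.

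The lowest of the bound genes was cox-6A (WBGene00006519, III, 5081724 to 5082995, + strand), which encodes a small membrane-spanning subunit. Its peak, chrIII:5080910-5081005, had a pooled signal of 95.5, with 68.3 in replicate 1 and 28.5 in replicate 2. It ranked 651 in the pooled list and 467 in replicate 1, but 1662 in replicate 2, beyond the length of the IDR list. The summit lay 800 bp upstream of cox-6A and only 26 bp upstream of the snRNA gene F54D8.7 (III, 5080798 to 5080898, − strand), which points the other way. In all, 23 IDR summits lay within 200 bp of an snRNA gene, and the part of F54D8.7 in the cox-6A peak was not tested.

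**Figure D1:**
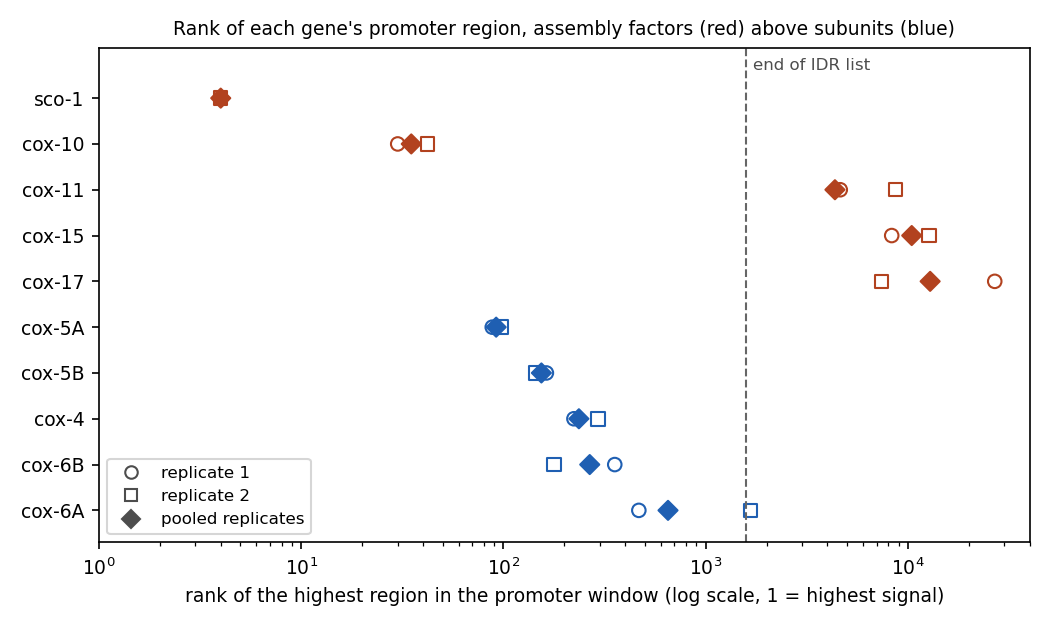
Rank of the highest region in the promoter window of each of the 10 genes, on a log axis from the strongest region at the left, in the lists of replicate 1 (open circles), replicate 2 (open squares) and the pooled replicates (filled diamonds). Assembly factors are red and stand above the subunits in blue; the dashed line marks the end of the IDR list at rank 1584, which sco-1, cox-10 and 4 subunits clear in every list, cox-6A clears in all but replicate 2, and cox-11, cox-15 and cox-17 do not reach.

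Over the 10 genes, then, 2 of 5 assembly factors and 5 of 5 subunits were bound, or 7 of 10 together, beside 7.71% of all protein-coding genes (1539 of 19973). The values just inside and just outside the call were 95.5 for cox-6A and 26.7 for cox-11. The assembly factors held both ends of the range: their median pooled signal was 26.7, with a lowest value of 16.1 and a highest of 2905, while the subunits had a median of 203 and ran from 95.5 to 437. The 7 bound genes had a median signal of 295 and a median rank of 154, against 96.1 and 644 for all 1539 bound genes. Among the 100 IDR peaks of highest signal were those of sco-1, cox-10 and cox-5A, so 3 of the 10 genes, beside 0.751% of all genes.

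Next to sco-1 in the ranking stood promoters of ribosomal protein, complex I and mevalonate pathway genes. Rank 2 was at rpl-20, a ribosomal protein gene, and Y17G9B.5 (signal 3935), and rank 3 at rbc-2, Y54F10AM.15 and the complex I gene ndua-8 (3017). The rank 3 peak did not go to ndua-8 when each peak was given to its nearest protein-coding start alone. Rank 5 was at hmgs-1, which encodes HMG-CoA synthase, and F25B4.4 (2064), and rank 6 at the ribosomal protein gene rps-12 and ska-3 (1967). Around cox-6A the signals were nearly equal, from 95.2 to 95.6: rank 649 was at nxt-1, and ranks 650, 652 and 653 had no coding gene start in reach.

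The call was repeated with 2 other windows, 2 other ways of using transcript starts, the stronger peaks and each replicate singly. In these 7 settings 4 or 5 subunits were bound, and the assembly factors bound were sco-1 and cox-10 each time. With a window of 2000 bp upstream and 500 bp downstream, 7 of the 10 genes were bound beside 9.81% of all genes. With 500 and 100 bp, 6 were bound beside 6.31%, because cox-6A dropped out. With the higher-signal 50 percent of the IDR peaks, 7 were bound beside 4.57%. When only the most upstream start of each gene was used, 6 were bound beside 7.33%. With each peak given to its nearest protein-coding start alone, 6 were bound beside 5.4%. The gene that dropped out was cox-6B in both cases. Starts of non-coding genes and pseudogenes took no part in this choice. Such a start lay nearer than the coding one to the summits of cox-10 (14 bp), cox-4 (139 bp) and cox-6A (26 bp). Replicates were also used singly, by taking the strongest 1584 regions from the list of the other. Without replicate 1, 6 genes were bound beside 6.91% of all genes, with cox-6A lost, and without replicate 2, 7 were bound beside 7.9%.

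**Figure D2:**
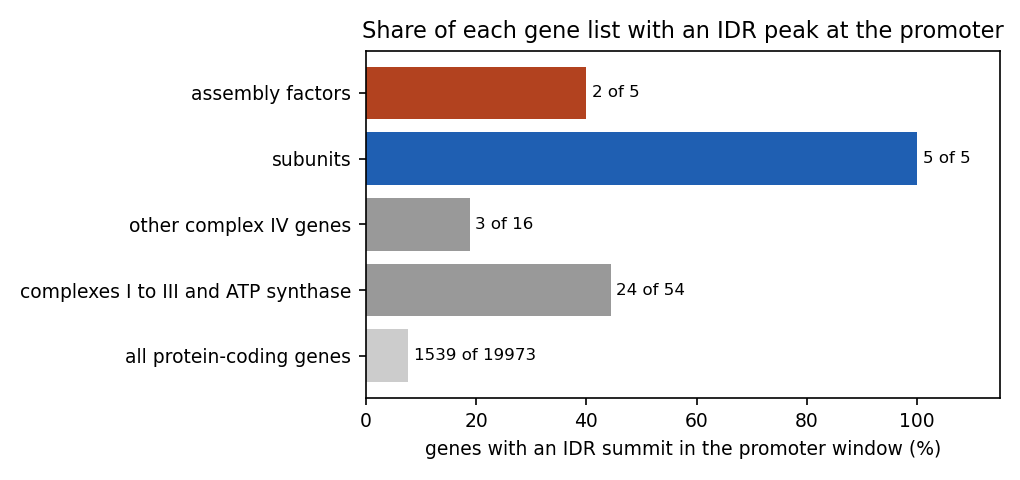
Share of each gene list with an IDR summit in the promoter window, in percent, with the count beside each bar: assembly factors (red), subunits (blue), other complex IV genes and the other respiratory complexes (grey), and all protein-coding genes (light grey). The 2 of 5 assembly factors and 5 of 5 subunits stand beside 7.71% of all genes; lists of 5 genes move by 20 percent with each gene.

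Of the other genes related to the same enzyme, called other complex IV genes here, 3 of 16 were bound (18.8%), beside 7.71% of all protein-coding genes. In other settings from 1 to 5 were bound. The list, taken by name, held further cox- and coa- genes, the cytochrome c genes cyc-2.1 and cyc-2.2, the heme lyase gene cchl-1 and sft-1, the SURF1 gene. Cytochrome c gives its electrons to the enzyme and is not a part of it. Only cyc-2.1 among them exceeded cox-6A, with a signal of 111 (rank 529) and a summit 261 bp upstream. The assembly gene coa-3 had a signal of 72.0 (rank 949, 621 bp upstream) and the subunit gene cox-6C 52.2 (rank 1523, 378 bp upstream). A further 6 had a weaker pooled region, the highest at coa-5 (46.5, rank 1813), and 7 had none in the window. The mitochondrially encoded core subunits could not be looked at: no list held a region on mitochondrial DNA (0 regions), and the sources used here do not say whether its reads were kept.

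In the genes of complexes I to III and ATP synthase, taken by name in the same way, 24 of 54 were bound, or 44.4%, beside 7.71% of all genes. The bound genes had a median signal of 137 and a median rank of 404. Their highest was ndua-8 at 3017 and their lowest 51.1. Among them, nduc-2 was counted through the same peak as cox-6B. With each peak given to its nearest protein-coding start alone, 13 of the 54 were bound, or 24.1%, beside 5.4%. The gene ndua-8 was not among these 13, whose highest signal was 258 at ucr-1 (rank 181). In the main call the bound complex IV genes among the 10 thus ran over much of the same range, with sco-1 just below ndua-8. Of these 2 genes at the top, only sco-1 kept its peak under the nearest-start setting. No difference between these lists was tested.

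What the 3 assembly factors without a peak shared was their place directly behind another gene. The gene next upstream stood on the same strand, 118 bp away for cox-11 (behind JC8.4), 99 bp for cox-15 (behind cchl-1) and 102 bp for cox-17 (behind ubc-20). None of the 7 bound genes had such a neighbour within 300 bp. In C. elegans, genes packed this closely on one strand are often transcribed together as an operon from a promoter ahead of the leading gene. No operon annotation was used here, and this grouping was chosen after the values had been seen.

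Over all genes the share bound differed by arrangement. Of 2479 protein-coding genes with a same-strand neighbour ending at most 300 bp upstream, 5.20% were bound, against 12.3% of 8425 genes whose upstream neighbour stands on the opposite strand. Among 7688 genes with a same-strand neighbour further away 3.92% were bound, so the low share was not confined to close neighbours. A summit counts for every gene whose window holds it, so a peak between divergent genes can count for each of them. This can raise the opposite-strand share here and in the lists below. With each peak given to its nearest protein-coding start alone, 5.4% of all genes were bound, against 7.71%. The shares by arrangement are given for the main call only. Of the other complex IV genes, 7 had a close same-strand neighbour and 1 was bound, cyc-2.1. In complexes I to III and ATP synthase, 1 of 10 such genes was bound, against 18 of 36 with an opposite-strand neighbour. Among the 10 genes themselves, 4 of 4 with an opposite-strand neighbour were bound, as were 3 of 3 with a same-strand neighbour further off (sco-1, cox-4 and cox-6A, at gaps of 702, 2393 and 1062 bp). With a gap limit of 1000 bp, an alternative added after seeing the data, sco-1 joins the close class, which then holds 4 of the 10 genes and 1 bound one.

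The leading genes of these clusters were followed back through every gap of at most 300 bp. The cluster of cox-11 runs through JC8.4 to lin-54, which encodes a DNA-binding subunit of the DREAM complex, and its promoter was bound at chrIV:13240554-13240826 (signal 332, rank 136, 350 bp upstream). The cluster of cox-15 runs through cchl-1 and fndc-1 to rpn-9, a proteasome subunit gene, bound at chrII:11238986-11239369 (68.6, rank 1017, 259 bp upstream). The cluster of cox-17 begins with ubc-20, a gene for a ubiquitin-conjugating enzyme, which had no IDR peak (22.9, rank 5886). Of the leading genes of all such clusters 18.9% were bound (369 of 1950), beside 2 of 3 here. These leading genes were named after their values had been seen, so the count is a description of 3 genes.

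Of the 7 other complex IV genes with a close same-strand neighbour, 4 had a bound leading gene. Among all genes with such a neighbour, counted in the same way, 20.3% had one (502 of 2479). The leading genes rad-23 ahead of coa-7 (248, rank 194), Y55F3AR.2 ahead of cox-18 (459, rank 83) and rpl-20 ahead of cyc-2.1 (rank 2) were bound, as was rpn-9 ahead of cchl-1, in the cluster of cox-15, while gfrp-1 ahead of coa-1, aph-2 ahead of coa-6 and F45H11.8 ahead of cox-19 were not.

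**Figure D3:**
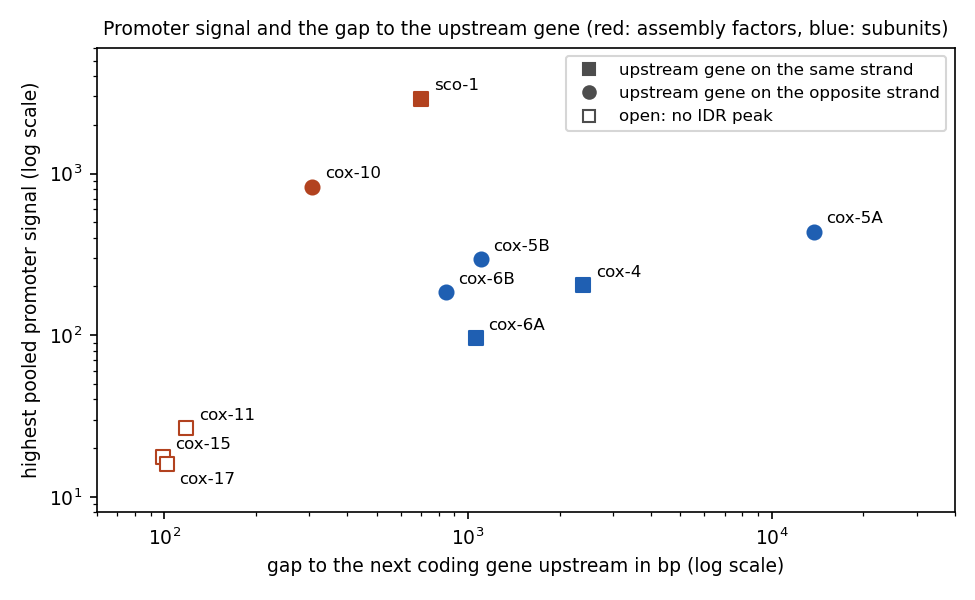
Highest pooled promoter signal of each of the 10 genes (log axis) by the gap to the next coding gene upstream in bp (log axis), with squares for a neighbour on the same strand, circles for one on the opposite strand and open symbols for genes without an IDR peak. The 3 open squares, cox-11, cox-15 and cox-17, lie at gaps of 99 to 118 bp and signals of 16.1 to 26.7; the gap of cox-6B is taken from its far start.

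All 7 summits of the bound promoters lay upstream of the start, at a median of 213 bp, as did 96.6% of the summits of all bound genes, whose median was 232 bp. The distances within the 7 nonetheless ran from 26 bp at cox-5B to 800 bp at cox-6A. The replicates placed these summits 3 to 42 bp apart, with a median of 13 bp, so the range over genes was wider than that between replicates.

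**Figure D4:**
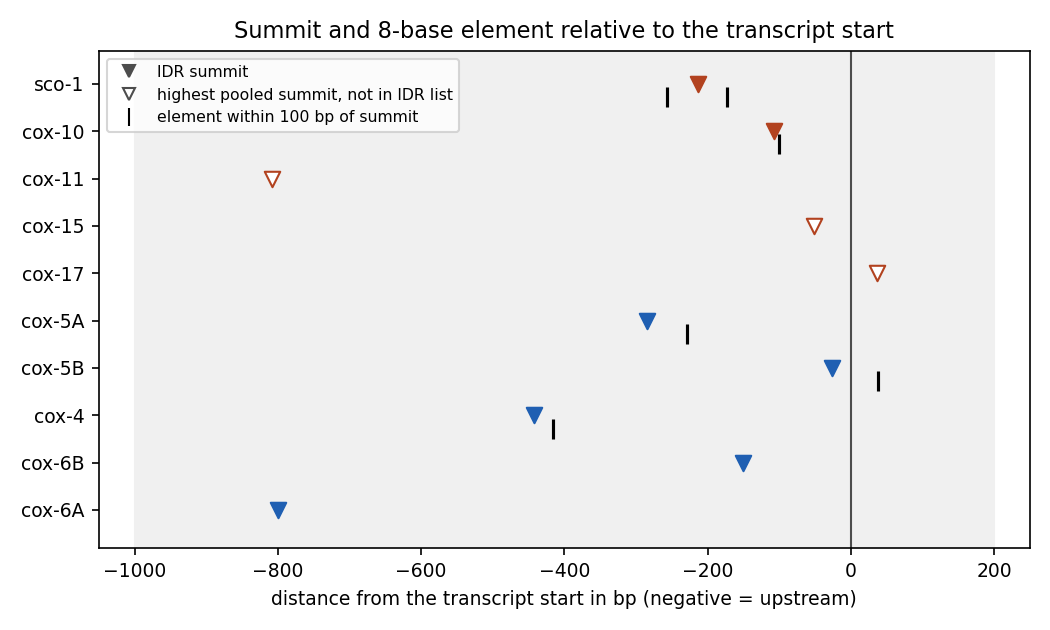
Position of the summit relative to the transcript start in bp, upstream to the left, for IDR peaks (filled triangles) and for the highest pooled region of genes without one (open triangles), with a tick for each copy of the 8-base element within 100 bp of an IDR summit. Assembly factors are red and above the blue subunits, and the grey band is the promoter window; the 7 filled triangles lie 26 to 800 bp upstream of the start.

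The element CGTAAATC was looked for because it was the 8-base word that most set the 300 highest IDR peaks other than those of the 10 genes apart from their flanks. It stood within 100 bp of the summit in 36.3% of those 300 peaks and in 0.667% of equally long windows placed 500 bp to the left and right of the summit, on either strand. It was therefore chosen on these data. The 7 peaks of the complex IV genes took no part in the choice, but the shares over all IDR peaks and over rank classes below include the 300 peaks that did. Of the 7 peaks of the complex IV genes, 5 held it, those of sco-1, cox-10, cox-5A, cox-5B and cox-4, beside 10.7% of all 1584 IDR peaks and 1.14% of all flanking windows. These 5 were also the 5 of highest signal, and the peaks of cox-6B and cox-6A, without it, were the 2 lowest.

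The share of all IDR peaks with the element is set out by rank class for comparison. Since it was chosen for its share in the 300 strongest other peaks, a high share in the upper classes follows from the choice and supports nothing. It stood in 68% of peaks of rank 1 to 50 (95% Wilson interval 54.2% to 79.2%, counting error only), the class of sco-1 and cox-10. It stood in 48% of ranks 51 to 100, where cox-5A lies, and in 36% of ranks 101 to 200, where cox-5B lies. It stood in 16% of ranks 201 to 400, the class of cox-4 and cox-6B, and in 5.75% of ranks 401 to 800, the class of cox-6A. In the 1277 other peaks that took no part in the choice, from rank 307 on, it stood in 4.39% (95% Wilson interval 3.39% to 5.65%), and cox-6A is the only one of the 7 in that range. With windows of 50 bp to each side of the summit, added after seeing the data, 3 of the 7 peaks held it, and with 150 bp 5 did.

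**Figure D5:**
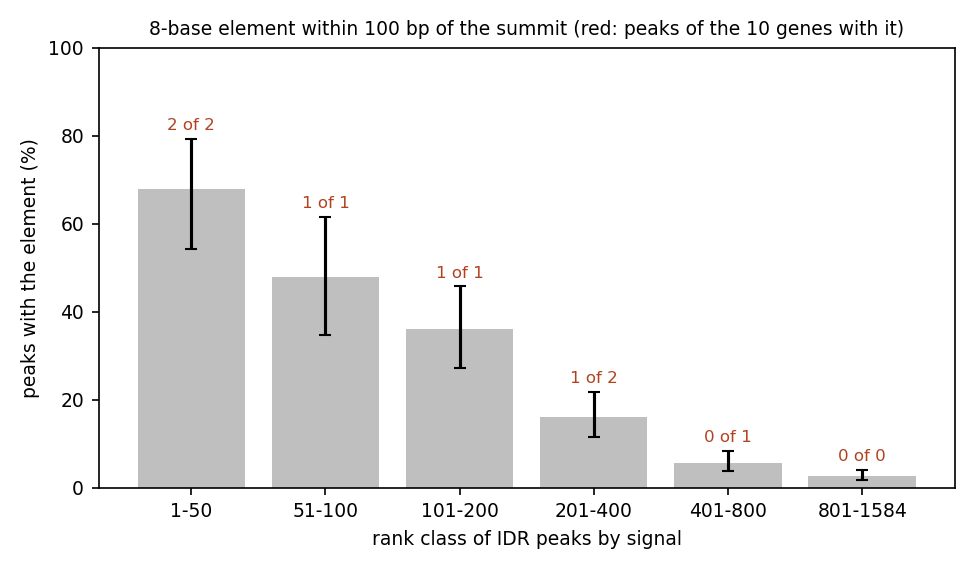
Percent of IDR peaks with the 8-base element within 100 bp of the summit, by rank class of signal from the strongest at the left, with 95% Wilson intervals as error bars and, in red, how many of the complex IV gene peaks in each class hold it. The share is 68% in ranks 1 to 50 and 2.68% in ranks 801 to 1584, but the element was chosen on the 300 strongest other peaks; the 5 gene peaks with the element lie at rank 236 or higher up.

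The copies kept no fixed distance from the start. At sco-1 they were centred 256.5 and 172.5 bp upstream, both on the strand opposite to the gene, and a second copy was found in only 9 of the 170 peaks with the element (5.29%). At cox-10 the copy was centred 100.5 bp upstream and at cox-5A 228.5 bp upstream, both on the strand of the gene. At cox-4 it was 415.5 bp upstream, on the opposite strand. The cox-5B copy lay on the strand of the gene, 37.5 bp downstream of the start nearer to the summit and 246.5 bp upstream of its other start, at 9789009. All lay within 63.5 bp of their summit.

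With 10 bases to each side, written in the direction of the element, the copies at sco-1, cox-10 and cox-5A read as follows, with the element in capitals, at chrII:4299383-4299410 and chrII:4299467-4299494 on the − strand for sco-1, chrII:12679840-12679867 on the + strand for cox-10 and chrIII:12905249-12905276 on the + strand for cox-5A.
sco-1, copy 1: gcaatcgcgcCGTAAATCtacaccactt
sco-1, copy 2: aaaaaaatatCGTAAATCtcccccgcgt
cox-10: ccttctttacCGTAAATCcacagctctc
cox-5A: gcccgtctctCGTAAATCgatagaagca

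In the whole promoter window the element stood in 6 of the 10 genes, beside 6.86% of all protein-coding genes (1371). Over all genes, 22.6% of the promoters with it were bound, against 6.61% of those without it. The bound promoters include those at the peaks on which the element was chosen. It was chosen for standing near summits more often than in flanks, so this contrast follows in part from the choice. For 5 of the 6 genes the copies were those already counted at their peaks. Both the genes and the element were chosen with peak signals known, so the higher share among the 10 genes is no separate support. The sixth was cox-6A, whose copy was centred 336.5 bp upstream of the start and 463.5 bp from the summit. None of cox-11, cox-15 and cox-17 had it. In the peaks of other complex IV genes it stood in 0 of 3, beside 10.7% of all IDR peaks. In their whole promoter windows it stood in 2 of 16, those of coa-1 and coa-5. In the peaks of complexes I to III and ATP synthase it stood in 6 of 24, at ndua-8, nuo-6, ucr-1, ndub-3, sdhb-1 and nuo-3, beside the same 10.7%. The peaks of ndua-8, nuo-6, ucr-1 and ndub-3 (ranks 3, 155, 181 and 241) were among those used to choose the element. Those of sdhb-1 and nuo-3 (ranks 399 and 527) were not. The share in this list therefore follows in part from the choice. With each peak given to its nearest protein-coding start alone, only ucr-1 of these 6 genes stayed bound.

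Each other word stood in at most 1 of the 7 peaks, and 7 windows are too few to set such counts apart from the shares of all IDR peaks. The word AGACGCAG, which led when all other IDR peaks were searched (16.2% of all IDR peaks and 0.821% of flanking windows), stood in 0 of 7. Unlike CGTAAATC it was rarest in the top rank class, with 2% of ranks 1 to 50, 20.5% of ranks 401 to 800 and 16.1% of ranks 801 to 1584. AGACGCAG was chosen on these same peaks, so its shares by rank class follow in part from the choice. Of the promoter motifs known from mammals, the ETS core CCGGAAG, the cAMP element TGACGTCA, the E-box CACGTG and the core of the nuclear respiratory factor motif stood in 0 of the 7 windows. They were also rare in all IDR peaks, at 0.884%, 1.39%, 6.44% and 0.379%. In flanking windows their shares were 1.52%, 0.821%, 4.04% and 0.0316%, so only the ETS core was rarer in the peaks than in the flanks. The GC box GGGCGG stood in 0 of 7, beside 10.9% of IDR peaks and 3.38% of flanking windows. The word TATAAA stood in the cox-4 window alone, beside 13.2% of IDR peaks and 20.5% of flanking windows. GAGAGA stood in the cox-5A window alone, beside 39.4% of IDR peaks and 10.9% of flanking windows. All words were searched on both strands, and a missing word says only that these letters are not in the window.

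The base composition of the windows ranged widely. The G and C share was 41.3% at sco-1, 30.3% at cox-10, 43.8% at cox-5A, 51.2% at cox-5B, 38.8% at cox-4, 36.3% at cox-6B and 47.3% at cox-6A. The median was 42.8% for all IDR peaks and 36.8% for their flanks, so cox-10 and cox-6B lay below the median of the flanks.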

How the data were processed

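ChIP-seq peak lists of 2 biological replicates of 1 group were analysed. Per the labels and the submitters' list of files, the authors deposited a relaxed list for each replicate, one for the pooled replicates and an IDR list, and 4 lists on ce11 were used. Each relaxed list came from an alignment of the replicates together with a control alignment, so the lists of the replicates, which share that control, are not fully independent. The authors deposited a signal for each region, a −log10 q-value (2.95 to 3.43 in the IDR list), used only to describe the lists, and a summit offset, which set each summit position. Not given in the sources used here are the aligner, the caller, the IDR threshold and the sequencing depth. Depth per sample is therefore unknown, and no counting error belongs to a single signal.

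Coordinates are 1-based on ce11, whose chromosome names and lengths matched the reference. Genes came from Ensembl release 115 (WBcel235), with all transcripts of nuclear protein-coding genes. Windows, ranks and counts were computed with Python 3.11.15, pandas 2.3.3 and NumPy 2.4.6, and Wilson intervals with SciPy 1.17.1, after the functions were tested on simulated data. Words were searched on both strands within 100 bp of each summit (201 bp) and in flanks centred 500 bp away. For the 8-base words, the 300 highest other peaks were used. Genes, partner genes and related genes were named by a written rule: all 10 genes, every gene sharing their summits, bound genes of the complex IV list and the peaks next in rank. Leading genes of clusters were named outside that rule, after their values had been seen. The 10 genes and all lists were chosen with earlier results of these data known, and nothing was tested. Alternatives were other windows, other starts, stronger peaks, single replicates, other gaps and other word windows.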

Additional observations from a re-analysis of the deposited data

How the results depend on the processing

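The count of bound genes among the 10 stayed at 6 or 7, and that of assembly factors at 2, under the 2 other windows, 2 other uses of starts, the stronger 50 percent of peaks and each single replicate. Peak lists of another length gave other counts: 3 of 10 genes in the 100 strongest peaks and 10 of 10 in the pooled list. Subunits numbered 4 or 5, with cox-6A or cox-6B the one lost. Of the 16 other complex IV genes, 3 were bound in the main analysis (18.8%), beside 7.71% of all genes. When only the stronger 50 percent of peaks were kept, 1 was bound (6.25%), beside 4.57%. With the narrow window and with both other uses of starts 2 were bound (12.5%), beside 5.4% to 7.33%. The wide window gave 4 (25%), beside 9.81%. The count ran from 3 without replicate 1 (18.8%, beside 6.91%) to 5 without replicate 2 (31.2%, beside 7.9%), which added coa-5 and cox-14. The median signal of the 10 genes was 194 in the pooled list and 90.1 to 106 in the list of a single replicate, where the signals have another scale. The element stood in 3 of 7 peaks with 50 bp windows, chosen after seeing the data, against 5, since its copies at cox-5A and cox-5B lie 55.5 and 63.5 bp from the summit. No paired analysis was possible because there is 1 group and no test. With 2 replicates, an unknown depth and no control sample analysed here, a signal has no error of its own beyond the spread of its ranks. A weak region, as at cox-11, cox-15 and cox-17, is not shown to be absent binding.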
